A study of Caenorhabditis elegans with 9 samples.

Results

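Transcript levels in smo-1 RNAi embryos of the nematode Caenorhabditis elegans were compared with those in control embryos across gene families and functions. The comparison used 6 of the study's 9 Affymetrix arrays, 3 per group, taken by their sample titles, and covered 17118 genes, each read by its brightest probe set. Control embryos came from wild-type N2 hermaphrodites fed bacteria with the empty RNAi vector L4440 for about 96 hours after hatching. The smo-1 RNAi embryos came from N2 hermaphrodites grown on HB101 bacteria for 24 hours and then for 72 hours on bacteria whose plasmid made smo-1 double-stranded RNA. Both groups were grown at the same temperature, and embryos of mixed stages were freed from gravid adults by bleaching, so that each array read pooled embryos of many mothers. The time on RNAi bacteria and the early diet moved with the treatment and cannot be told apart from it. The other 3 arrays held embryos of sdc-2(y93) hermaphrodites, labelled as fed bacteria with sdc-2 RNAi and grown on the same schedule as the smo-1 RNAi worms, although the growth protocol names only a smo-1 plasmid for both RNAi groups. The labels do not say whether the replicates of a group were grown separately, so a p-value reflects the spread of these arrays, which may be technical. Precision is limited by how few arrays there are.

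The gene smo-1 encodes SUMO, a small ubiquitin-like protein that is joined to lysines of other proteins by an activating enzyme, a conjugating enzyme and ligases, and is removed by ULP proteases. Many of its targets are nuclear: transcription factors, chromatin repressors, DNA repair proteins and components of the mitotic chromosome. In worms, loss of SUMO disturbs embryonic cell division, tissue formation and the repression of genes by chromatin complexes. Feeding double-stranded RNA to the mother lowers both the messenger she loads into the egg and the messenger the embryo makes.

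The smo-1 messenger read 11.96, 11.79 and 12.04 on the control arrays and 7.91, 8.21 and 8.66 on the smo-1 RNAi arrays (log2 level). The groups were far apart, and the difference was -3.67 ± 0.17 (log2 fold change with its standard error from the limma fit, n = 3 per group). Other SUMO pathway genes changed less and in both directions. Besides smo-1, 6 were measured, and ulp-5 (0.59), a SUMO protease gene, and gei-17† (0.58), a SUMO ligase gene, rose, though the call for ulp-5 was lost under the autosomal scaling described below (0.46), with quantile normalization repeated (0.47), without control replicate 2 (0.51), without control replicate 3 (0.61) or without smo-1 RNAi replicate 3 (0.41). The activating enzyme subunit gene aos-1† (-0.53) fell. The protease genes ulp-1 (0.15), ulp-2 (-0.36) and ulp-4 (0.11) did not pass the threshold at their brightest probe sets, but a second, dimmer probe set fell for each, by -0.45 for ulp-1, -1.01 for ulp-2 and -0.81 for ulp-4. With smo-1 the list stood at 2 higher and 2 lower. It stood at 1 and 3 under the autosomal scaling and at 3 and 2 under the bright-autosome scaling, also described below. Here and below, numbers in parentheses after a gene name are log2 fold changes of smo-1 RNAi over control, "rose" and "fell" are used for genes with a limma adjusted p under 0.05, and a dagger marks a gene whose probe set can bind related transcripts.

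Replicates of a group correlated at 0.993 to 0.997 across genes and arrays of different groups at 0.924 to 0.945. At the threshold 39.9% of all genes differed, with 17.8% higher and 22.2% lower, and the median log2 fold change of all genes was -0.0021. A rise or fall of 2-fold or more was called for 6.86% and 4.26% of genes. The largest rises were larger than the largest falls: 150 genes rose by 8-fold or more and 4 fell as far. Large risers started near the median control level of all genes, 6.55, and large fallers started bright. The 1175 genes that rose by 2-fold or more had a median control level of 6.63 and a median smo-1 RNAi level of 8.69, while the 730 that fell had 9.17 and 7.84. Among the risers 367 (31.2%) had a control level below 6, in the range of 4.73 to 6.28 read for 9 hybridisation control probe sets without signal, and among the fallers 0 did. Of all genes 41.6% had a control level below 6, a larger share than among the risers. Annotated pseudogenes made up 5.12% of all genes and 1.36% of the large risers. Of X-linked genes 13.9% rose by 2-fold or more, against 5.02% to 6.51% on the 5 autosomes. Autosomal members are therefore counted apart for some lists that hold X-linked genes. The balance of rises and falls depended on scaling. Centring each array on its autosomal genes (the autosomal scaling) moved the median of all genes to -0.13, and centring on autosomal genes brighter than the median gene (the bright-autosome scaling) moved it to 0.20. A change of balance under either scaling is given beside the list. Above the median level, where most members of housekeeping families lie, 22.5% of genes rose and 38.2% fell.

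**Figure D1:**
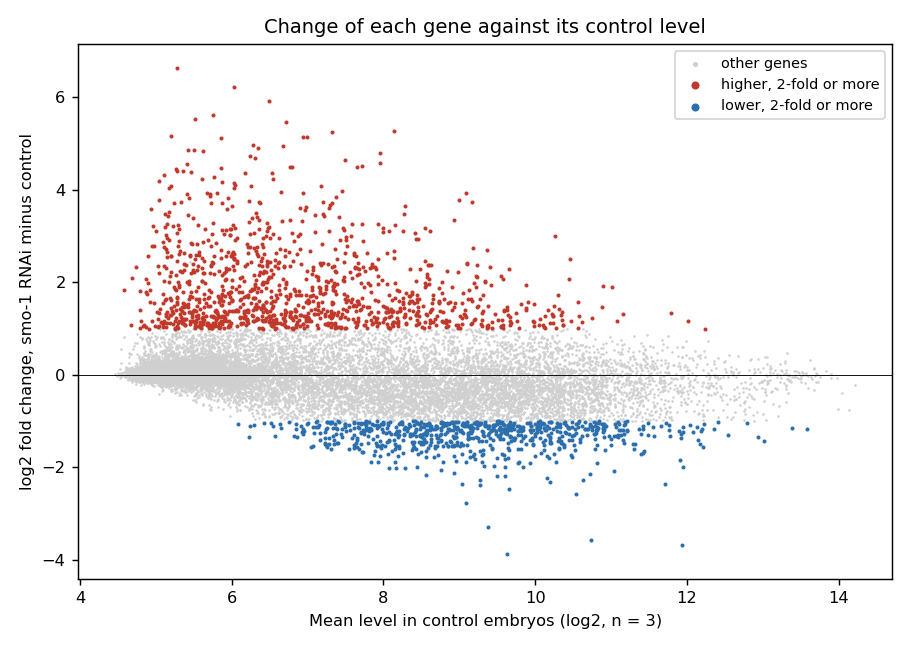
Each point is a gene, with its mean control level (log2, n = 3) on the x axis and its log2 fold change on the y axis. Genes called at an adjusted p of 0.05 with a change of 2-fold or more are coloured red (higher, 1175) or blue (lower, 730), and the red points lie further to the left than the blue ones.

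Marker levels of embryo age and of carried-over adult tissue stood beside these changes. Of 8 early embryo markers measured 0 rose and 5 fell, and their summed level (log2 of summed linear values) was 12.53 to 12.84 in control and 11.98 to 12.33 in smo-1 RNAi embryos. Of 10 late embryo markers 5 rose and 3 fell, with summed levels of 14.44 to 14.58 and 14.52 to 14.67. Yolk protein genes, which the adult intestine expresses, were at background in both groups, at 4.75 to 6.23 in control and 4.74 to 6.25 in smo-1 RNAi embryos. Of 6 sperm markers 0 passed. RNA integrity and labelling are read from paired 3' and 5' probe sets of control transcripts, and the 3' minus 5' difference was larger on smo-1 RNAi arrays for actin by 0.66, catalase by 0.86 and ubiquitin by 0.32 (log2). For Gapdh it was smaller by 0.26 (exact permutation p = 0.1 for each of the 4, the smallest that 3 against 3 allows), and for gly14 it differed by 0.077 (exact permutation p = 0.1). The part of embryo age and of RNA quality in the results that follow was not tested. In such pooled samples fewer cells of a type and less RNA per cell cannot be told apart.

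**Figure D2:**
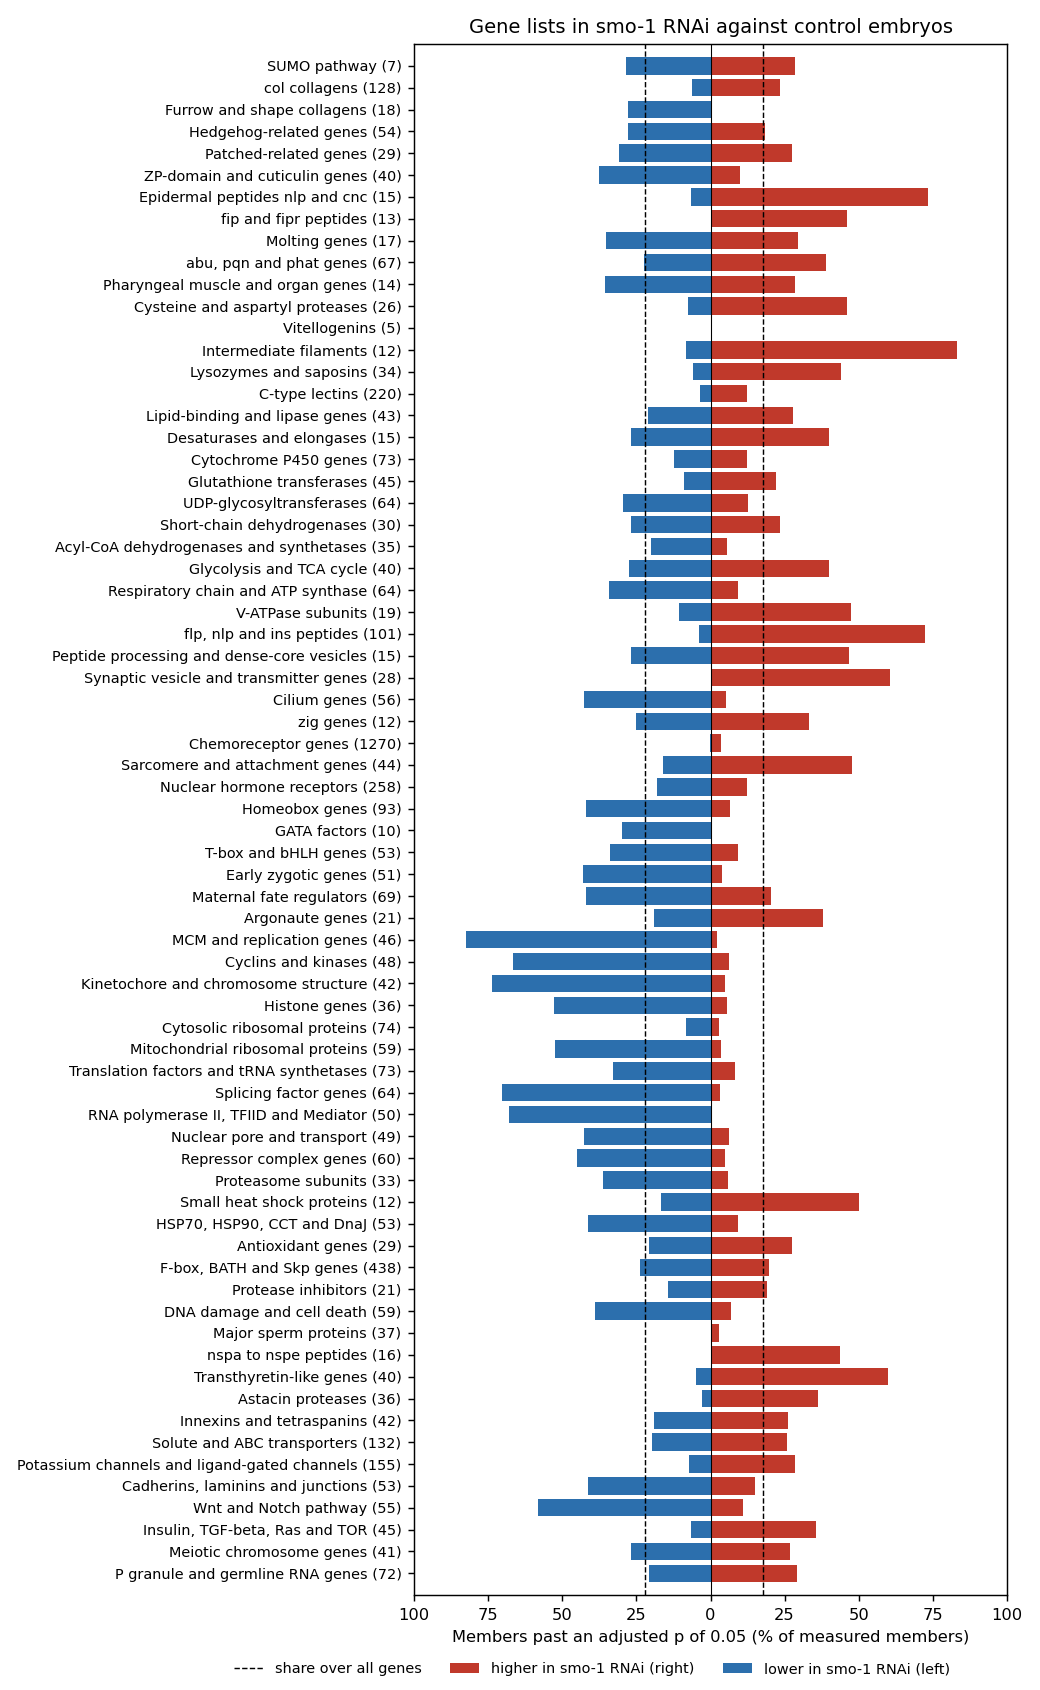
Bars show, for each of 70 gene lists, the percent of measured members (their number in parentheses) that rose (red, right) or fell (blue, left) in smo-1 RNAi embryos at an adjusted p of 0.05. Dashed lines mark the shares over all genes, 17.8% and 22.2%. Neuropeptides, epidermal peptides and intermediate filaments reach far to the right, and replication, kinetochore and splicing genes far to the left.

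Most neuropeptide genes rose. They encode the FMRFamide-like (flp), neuropeptide-like (nlp) and insulin-like (ins) peptides that neurons and other cells release from dense-core vesicles. Of 101 measured, 73 rose (72.3%) and 4 fell, with a median of 0.96, and 49 rose by 2-fold or more. X-linked members numbered 29, but of the 72 autosomal members 50 rose and 4 fell. The nlp-26 gene read 5.12, 5.14 and 5.32 on the control arrays and 9.44, 9.09 and 9.30 on the smo-1 RNAi arrays. It went from background to a middle level on every array, a change of 4.08 ± 0.20 (limma adjusted p = 1.1e-07). The X-linked flp-8 read 7.38, 7.96 and 7.36 on the control arrays and 10.41, 10.70 and 10.61 on the smo-1 RNAi arrays. All 3 smo-1 RNAi arrays lay above the control arrays, by 3.01 ± 0.19 (limma adjusted p = 7.8e-07). Others that rose far were nlp-1 (2.96), flp-5 (2.79), flp-3 (2.57), nlp-40† (2.57), nlp-16 (2.42), flp-16 (2.39) and flp-17 (2.36). Those that fell include the insulin-like genes ins-34 (-0.97) and ins-2 (-0.93), and nlp-60 (-0.82).

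Genes that process and store these peptides were split. Of 15, 7 rose and 4 fell. Beside the convertase gene egl-3, the risers held sbt-1† (1.27), a chaperone of that convertase, and pghm-1 (1.15), an enzyme of peptide amidation. The vesicle gene ida-1† (0.97) also rose. The fallers held the carboxypeptidase gene cpd-1† (-0.57). The gene unc-31, which primes dense-core vesicles for release, differed by -0.01 ± 0.09 and did not pass.

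Genes of the synaptic vesicle and of transmitter synthesis rose less, but with no member falling. Of 28, 17 rose and 0 fell, with a median of 0.42, while 2 fell under the autosomal scaling. The largest rise was that of cpx-1, the gene of complexin, a clamp of vesicle fusion, which read 7.57, 7.59 and 7.24 on the control arrays and 8.97, 8.84 and 8.85 on the smo-1 RNAi arrays. The arrays did not overlap, and the change was 1.42 ± 0.19 (limma adjusted p = 0.00015). Genes of several transmitters rose together: cat-1† (0.97) for monoamine loading, tbh-1† (0.97) for octopamine, unc-25 (0.89) for GABA and cha-1† (0.85) for acetylcholine. Core vesicle genes among the risers were snt-1 (0.94), the synaptotagmin gene, unc-18 (0.81) and rab-3† (0.80).

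Among genes of the sensory cilium more fell than rose. Of 56, 3 rose and 24 fell (42.9%, against 22.2% of all genes and 38.2% of those above the median level, where 34 of them lie), with a median of -0.28. The furthest fall was in a gene of the transition zone, the gate at the base of the cilium: nphp-1 read 8.08, 8.53 and 8.21 on the control arrays and 7.11, 6.81 and 7.40 on the smo-1 RNAi arrays. The smo-1 RNAi arrays all lay below the control arrays, by -1.17 ± 0.17 (limma adjusted p = 0.00027). Others were mks-5 (-0.97), mks-6 (-0.83) and mks-3 (-0.71) of the transition zone, bbs-9 (-0.95) and bbs-1 (-0.75) of the BBSome, and che-11† (-0.78), che-13 (-0.77) and dyf-2 (-0.76) of intraflagellar transport. Among the exceptions xbx-9 (1.24) and xbx-3 (1.05) rose.

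Chemoreceptor genes, the largest family on the array, were mostly at background. Of 1270, 9 lay above the median level of all genes, 43 rose and 3 fell, which turned to 28 and 44 under the autosomal scaling. A few rose far, including sri-31 (3.47), srd-51 (3.13), sre-50 (2.70) and sre-40 (2.58). Of 12 zig genes, encoding immunoglobulin-domain proteins that in part keep axons in place, 4 rose and 3 fell, led by zig-3 (4.36) and zig-4 (3.11), both X-linked. Among 155 potassium and ligand-gated channel genes 44 rose and 11 fell, 26 and 10 among 111 autosomal ones. The channel gene unc-58 rose beside its neighbours flp-2 and flp-3 on X.

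**Figure D3:**
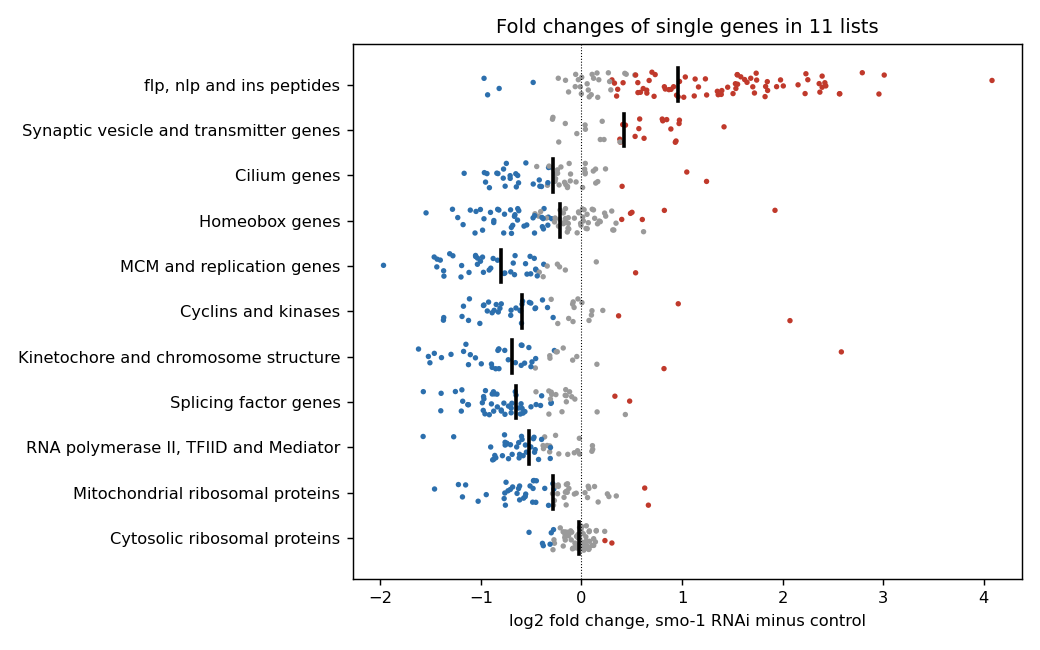
Each point is a gene of the 11 lists at its log2 fold change in smo-1 RNAi over control embryos, red where it rose and blue where it fell at an adjusted p of 0.05, grey otherwise. The black bar is the list's median, from 0.96 for neuropeptides to -0.80 for replication genes. Peptide and synaptic genes lie to the right of 0, cilium, homeobox, division and gene expression genes to the left, and cytosolic ribosomal proteins around 0.

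Antimicrobial peptide genes of the epidermis gave some of the steepest rises. Of 15 nlp and cnc genes of this kind 11 rose, each by 2-fold or more, and 1, cnc-3† (-0.68), fell, a call lost without control replicate 2 (-0.58), without smo-1 RNAi replicate 1 (-0.64) or without smo-1 RNAi replicate 3 (-0.68). The caenacin gene cnc-4 read 6.06, 6.34 and 6.65 on the control arrays and 11.46, 11.05 and 11.27 on the smo-1 RNAi arrays. It was low in control and bright in smo-1 RNAi embryos, with a change of 4.91 ± 0.19 (limma adjusted p = 2.8e-08). The nlp-29 gene, induced in larvae and adults by wounding and fungal infection of the epidermis, read 6.52, 7.10 and 6.54 on the control arrays and 12.51, 11.99 and 12.07 on the smo-1 RNAi arrays. Its probe set can bind related transcripts, as can those of its neighbours nlp-27† (3.62), nlp-28† (3.33), nlp-30† (2.53) and nlp-31† (2.37), so these may share signal. With probe sets of their own, cnc-8 (3.25) and cnc-6 (1.38) rose, and nlp-32 (0.22) and cnc-5 (0.18) did not pass. Of 13 fip and fipr genes, a related class of small secreted peptides, 6 rose and 0 fell, led by fipr-2 (4.17).

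Genes of the embryonic outer coats included some far falls. Proteins with a zona pellucida (ZP) domain line the outer surface of embryonic epithelia, and 15 of 40 of their genes fell (37.5%), while 4 rose. Over all genes 22.2% fell. Above the median level, where 27 of the ZP genes lie, 38.2% of all genes fell, and at or below it 6.11%. The family holds genes of both kinds, so neither share alone is its background. The cuticulin gene cut-6 read 8.79, 9.17 and 9.14 on the control arrays and 6.88, 6.67 and 6.45 on the smo-1 RNAi arrays. The arrays did not overlap, and the difference was -2.36 ± 0.13 (limma adjusted p = 3.1e-07). The gene noah-2, which encodes a component of the sheath that holds the elongating embryo, read 12.26, 12.14 and 12.13 on the control arrays and 10.60, 10.68 and 10.78 on the smo-1 RNAi arrays. It was among the brighter genes in both groups and differed by -1.49 ± 0.09 (limma adjusted p = 4.6e-07). Further falls were cutl-2† (-2.19), cut-2† (-1.15), let-653 (-1.04) and fbn-1 (-0.87), and cutl-20 (0.92) rose furthest.

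Collagens of the cuticle are given by class. Of 128 col genes 30 rose and 8 fell, with a median of 0.18, led by col-103 (3.15), col-163 (3.10) and col-98 (2.27). Those that fell include col-76 (-1.29) and col-74 (-0.75). Of 18 collagens named for their effect on body shape or furrows, 0 rose and 5 fell. These were the furrow collagens dpy-3† (-1.32), dpy-2† (-1.21) and dpy-7† (-0.78), with dpy-17 (-0.74) and dpy-14 (-0.59). The others, among them rol-6 (0.41), sqt-3† (-0.22), dpy-13† (0.07) and bli-1 (0.32), did not pass. The molting gene mlt-3 (2.62) rose and mlt-10 (-1.03) fell, and of 17 molting genes 5 rose and 6 fell, a balance that turned under the bright-autosome scaling.

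Hedgehog-related genes, which encode secreted proteins with no Hedgehog signal of the fly or vertebrate kind, were on both sides. Of 54, 10 rose and 15 fell, turning to 14 and 12 under the bright-autosome scaling. The ground-like gene grl-21 read 6.64, 6.48 and 6.35 on the control arrays and 12.45, 12.33 and 12.43 on the smo-1 RNAi arrays. This was a change of 60.3-fold from a low to a bright level with no overlap. Its relatives grl-4† (4.59) and grl-6 (2.04) also rose, while grl-2 (-1.33), grl-7† (-1.30), wrt-6 (-1.44) and wrt-10† (-1.28) fell. The Patched-related membrane proteins were also on both sides, with 8 of 29 higher and 9 lower, turning to 10 and 6 under that scaling. The ptr-8 gene read 5.85, 5.71 and 5.58 on the control arrays and 9.79, 9.53 and 9.44 on the smo-1 RNAi arrays, a rise of 3.87 ± 0.13 (limma adjusted p = 9.3e-09), and ptr-12 (2.52) rose while ptr-25† (-1.60) and ptr-18† (-1.18) fell.

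Most transthyretin-like genes rose. Of 40 transthyretin-like genes, a family of small secreted proteins expanded in nematodes, 24 rose (60.0%), 16 of them by 2-fold or more, and 2 fell. The ttr-26 gene read 4.91, 5.60 and 5.27 on the control arrays and 9.61, 9.59 and 9.94 on the smo-1 RNAi arrays. It was at background on the control arrays and changed by 4.46 ± 0.20 (limma adjusted p = 6.1e-08). The fallers were ttr-50† (-0.87) and ttr-52 (-0.96), and TTR-52 is a bridge between dying cells and the cells that engulf them. Astacins are secreted zinc proteases, and of 36 genes 13 rose (36.1%, against 17.8% of all genes), 1 fell and 22 did not pass. X-linked nas-11 (3.94) and nas-38 (3.66) led, and among 27 autosomal members 7 rose. The member that fell, hch-1† (-0.98), encodes the hatching enzyme that weakens the eggshell.

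Genes of intestinal digestion and defence held some of the far risers. Of 26 cysteine and aspartyl protease genes 12 rose (46.2%, against 17.8% of all genes) and 2 fell, and 10 of 22 autosomal members rose. The cathepsin B-like gene cpr-4 read 7.32, 7.87 and 7.31 on the control arrays and 12.22, 12.25 and 11.96 on the smo-1 RNAi arrays. The arrays did not overlap and the change was 4.64 ± 0.16 (limma adjusted p = 1e-08). Lysozymes and saposins act on bacteria in the gut, and 15 of their 34 genes rose (44.1%) while 2 fell. The lys-1 gene read 7.86, 8.19 and 6.89 on the control arrays and 12.02, 12.05 and 12.36 on the smo-1 RNAi arrays, with wide spread among control arrays but no overlap, and differed by 4.49 ± 0.27 (limma adjusted p = 4.2e-07). Further risers were lys-3† (3.74), ilys-3 (2.79), lys-7† (2.72) and lys-8 (2.18), and the fallers were spp-15 (-1.34) and spp-7† (-1.07). Of 220 C-type lectin genes 27 rose (12.3%, against 17.8% of all genes) and 8 fell, led by clec-150 (4.97). Of the 220, 30 lie above the median level, and 13.1% of all genes at or below it rose, near the lectin share. The cystatin gene cpi-1 (4.86), an inhibitor of cysteine proteases, rose as well.

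Of 12 genes of cytoplasmic intermediate filaments, 10 rose and 1 fell. Of these, 8 are X-linked, and 3 of 4 autosomal members rose. The intestinal members ifc-1 (2.31) and ifc-2 (2.26), which lie under the apical membrane of gut cells, led, and ifa-3 (-0.46) fell, a call lost under the bright-autosome scaling. Proton pump genes of the V-ATPase rose in 9 of 19 cases and fell in 2, led by vha-7† (2.41). The intestinal subunit gene vha-6† (0.98) was among them. Yolk protein genes gave 0 of 5 higher and 0 lower.

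Fatty acid synthesis genes moved both ways. Of 15 desaturase and elongase genes 6 rose and 4 fell. The stearoyl-CoA desaturase gene fat-6 read 6.71, 6.23 and 5.76 on the control arrays and 8.97, 9.05 and 9.82 on the smo-1 RNAi arrays. Control arrays spread widely below the smo-1 RNAi arrays, and the change was 3.04 ± 0.26 (limma adjusted p = 7.2e-06). The delta-12 desaturase gene fat-2 (2.57) and the elongase genes elo-5† (1.55) and elo-1 (0.84) rose, while elo-4 (-1.78), elo-3 (-1.12) and elo-9 (-0.99) fell. The fat-7 gene, a close relative of fat-6, gave 0.11 ± 0.14 and did not pass.

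Pharynx genes moved both ways. Of 67 abu, pqn and phat genes, several of which encode the lining and glands of the pharynx, 26 rose and 15 fell, led by pqn-31 (4.41), abu-10 (3.18) and pqn-94 (3.11). A second probe set of abu-10, near background, differed by 0.04 and did not pass. Of 14 genes of pharyngeal muscle and organ identity 4 rose and 5 fell, turning to 5 and 4 under the bright-autosome scaling. The pharyngeal myosin genes myo-2† (1.27), myo-1† (1.08) and myo-5† (0.84) rose. The organ selector pha-4† (-1.02), a FoxA factor, and the homeobox gene ceh-22, an activator of pharyngeal muscle genes, fell. The ceh-22 gene read 9.60, 9.83 and 9.46 on the control arrays and 8.49, 7.94 and 8.61 on the smo-1 RNAi arrays. The arrays of the groups did not overlap, and the difference was -1.28 ± 0.19 (limma adjusted p = 0.00034). The pax-1 and eya-1 genes also fell, as pax-1 (-1.30) and eya-1† (-0.98).

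Body muscle genes moved both ways too. Of 44 sarcomere and attachment genes 21 rose and 7 fell, 12 and 7 among 31 autosomal ones. The X-linked troponin T gene tnt-2 read 7.49, 7.69 and 7.34 on the control arrays and 10.65, 10.14 and 10.68 on the smo-1 RNAi arrays, a change of 2.98 ± 0.15 (limma adjusted p = 1.1e-07). Thick filament and regulatory genes unc-22 (1.19), unc-87† (1.38), tni-3† (1.27) and unc-15† (0.84) rose. Of attachment genes, chosen after their values were seen, pat-4† (-0.94), the integrin-linked kinase gene, unc-95† (-0.99) and unc-112† (-0.71) fell. The vinculin gene deb-1 (-0.12) did not pass at its brightest probe set, but a second, dimmer deb-1 probe set fell by -0.32 (limma adjusted p = 0.045). The tropomodulin gene tmd-2† (-1.46) also fell.

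Among transcription factors of embryonic patterning more genes fell than rose, though most did not pass. Of 93 homeobox genes 6 rose and 39 fell (41.9%), with a median of -0.22. Above the median level, where 59 of the 93 lie, 38.2% of all genes fell, and at or below it 6.11%. The list holds genes of both kinds, so neither share alone is its background. The falls include unc-62† (-1.23), a Meis-type cofactor of Hox proteins, pros-1 (-1.05), the Prospero gene, and lin-11 (-0.97) and zag-1 (-0.87), which act in neurons. The furthest faller was ceh-86† (-1.55). The opposite extreme was X-linked ceh-18† (1.93), whose protein acts in the gonadal sheath to control oocyte arrest.

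Of 53 T-box and basic helix-loop-helix genes 5 rose and 18 fell. Proneural genes were among the falls: ngn-1 (-1.26), neurogenin, and hlh-3 (-1.13), an achaete-scute gene. So were tbx-8 (-1.02) and tbx-9† (-1.08), which act in body wall muscle and epidermis of the embryo, and sea-1† (-1.77), an autosomal element of the sex signal. The hlh-11 gene rose against the list, with 6.11, 6.18 and 5.66 on the control arrays and 9.05, 8.68 and 9.31 on the smo-1 RNAi arrays. It stood at background in control and at a middle level in smo-1 RNAi embryos, by 3.03 ± 0.20 (limma adjusted p = 1.1e-06). Of 10 GATA factor genes 0 rose and 3 fell, while 5 fell under the autosomal and 1 under the bright-autosome scaling. The call of 1 of the 3 was lost on leaving out any of the 6 arrays. The endoderm genes were not among the 3: end-1 (-0.23), end-3 (0.03), elt-7 (-0.12) and elt-2 (-0.31) did not pass. A second elt-2 probe set, brighter in control embryos, fell by -0.80 (limma adjusted p = 0.00092).

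Of 258 nuclear hormone receptor genes 32 rose and 47 fell, turning to 71 and 25 under the bright-autosome scaling. Those that rose furthest were nhr-57 (2.04), a target of the hypoxia-inducible factor in adults, nhr-7† (1.81), nhr-50† (1.62) and daf-12 (1.61), the receptor for dafachronic acids. Genes first transcribed in early embryos (sdz, vet and pes) gave 2 higher and 22 lower (43.1%) of 51, of which 24 lie above the median level. Besides members reported for smaller sets, sdz-30 (-1.78), vet-1† (-1.44) and sdz-9 (-1.36) fell, and sdz-24 (1.36) rose.

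**Figure D4:**
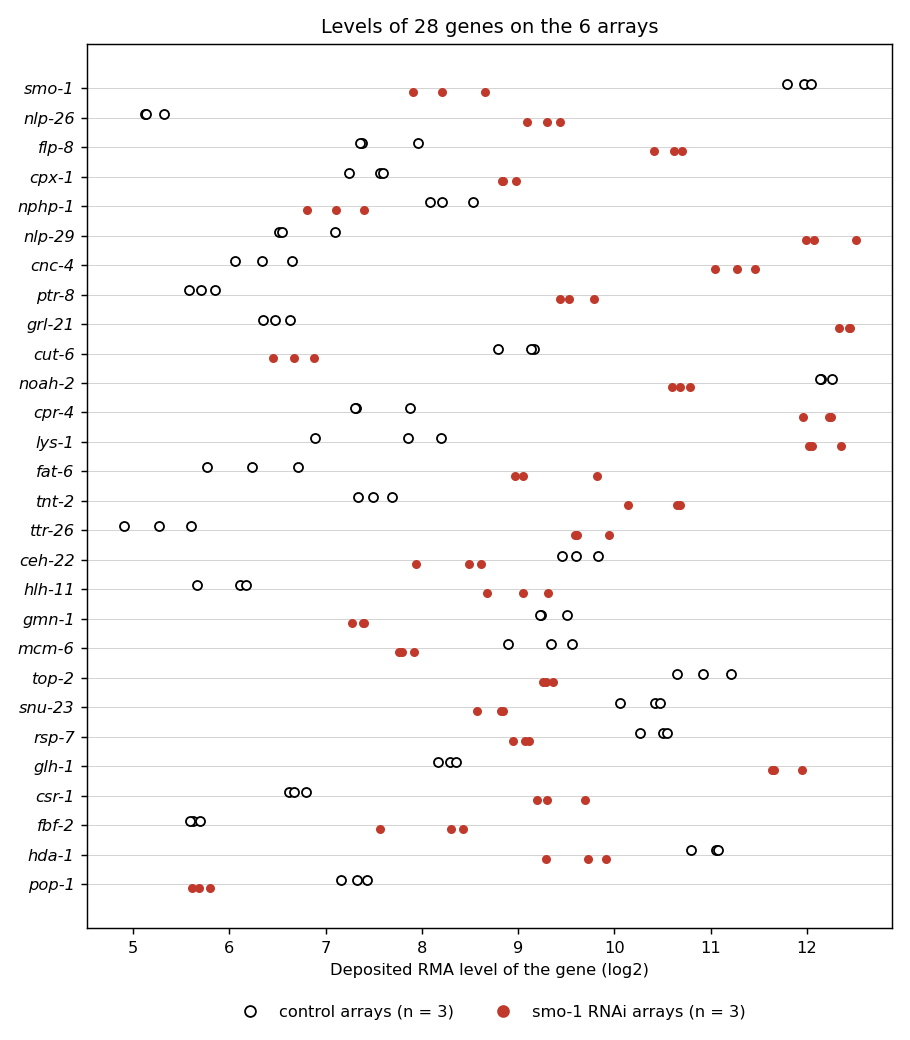
Deposited RMA levels (log2, x axis) of 28 genes on the 3 control arrays (open circles) and the 3 smo-1 RNAi arrays (red). In each gene the open and red circles do not overlap. The genes nlp-26, ttr-26, hlh-11 and fbf-2 start near background in control embryos, and smo-1, noah-2, top-2 and hda-1 start bright.

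Most genes of DNA replication fell. Of 46, 38 fell (82.6%) and 1 rose, with a median of -0.80, against 38.2% of genes above the median level, where 45 of them lie. Under the bright-autosome scaling 31 fell and 2 rose. The geminin gene gmn-1, whose protein keeps origins from firing again, read 9.23, 9.23 and 9.51 on the control arrays and 7.27, 7.40 and 7.39 on the smo-1 RNAi arrays. All smo-1 RNAi arrays were below the control arrays, by -1.97 ± 0.13 (limma adjusted p = 8.7e-07). The helicase subunit gene mcm-6 read 9.34, 8.89 and 9.55 on the control arrays and 7.76, 7.80 and 7.92 on the smo-1 RNAi arrays, with no overlap and a change of -1.44 ± 0.17 (limma adjusted p = 6e-05). The other helicase genes mcm-2† (-1.40), mcm-3† (-1.19) and mcm-4† (-1.44) fell, and so did the origin and loading genes orc-1 (-1.20), orc-4 (-1.31) and cdt-1† (-1.28). Genes of synthesis fell as well: pri-1† (-1.37) of primase, pcn-1† (-1.03), the sliding clamp, rnr-1† (-1.12) of ribonucleotide reductase and dut-1 (-1.46), a dUTPase. The riser was rpa-4† (0.54), related to a subunit of the single-strand binding protein.

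Most cell cycle regulators fell too, with 32 of 48 lower and 3 higher and a median of -0.59. They include cyd-1† (-1.37), cyclin D, bub-1 (-1.37), a checkpoint kinase, fzy-1 (-1.19), an activator of the anaphase-promoting complex, cks-1 (-1.17), air-1† (-0.94), Aurora A, and cdk-1 (-0.61). The member that rose furthest was the polo-like kinase gene plk-3† (2.07).

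Of 42 kinetochore and chromosome structure genes 31 fell (73.8%) and 2 rose. The topoisomerase II gene top-2 read 10.92, 10.65 and 11.21 on the control arrays and 9.37, 9.29 and 9.26 on the smo-1 RNAi arrays, bright in both groups without overlap, and differed by -1.62 ± 0.16 (limma adjusted p = 1.6e-05). Kinetochore genes knl-3† (-1.52), hcp-1 (-1.51), spdl-1 (-1.46), kbp-5 (-1.30) and rod-1 (-1.17) fell, and so did the mitotic cohesin gene scc-1 (-1.39). The risers were cpar-1 (2.59), a paralogue of the centromeric histone HCP-3, and rec-8† (0.82), the meiotic form of the cohesin subunit SCC-1. Linker and variant histones followed both directions, with hil-5 (-1.26) and hil-4 (-1.14) lower and hil-1 (1.37) higher.

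Most genes of messenger production fell. Of 64 splicing factor genes 45 fell (70.3%) and 2 rose, with a median of -0.65, and under the bright-autosome scaling 39 fell and 4 rose. The snu-23 gene of the spliceosome read 10.42, 10.05 and 10.47 on the control arrays and 8.84, 8.57 and 8.82 on the smo-1 RNAi arrays, a change of -1.57 ± 0.16 (limma adjusted p = 1.8e-05) without overlap. The SR protein gene rsp-7 read 10.51, 10.27 and 10.54 on the control arrays and 9.11, 9.07 and 8.94 on the smo-1 RNAi arrays, also without overlap. Its change was -1.40 ± 0.12 (limma adjusted p = 5.5e-06), and the SR genes rsp-5 (-1.25) and rsp-6† (-1.19) fell with it. So did lsm-1 (-1.40), which acts in messenger decapping, snrp-200† (-1.19), a helicase, and uaf-2† (-0.97), the small subunit of the splice acceptor factor U2AF. Of 50 genes of RNA polymerase II, TFIID and Mediator 34 fell and 0 rose. The largest falls were in Mediator, mdt-29† (-1.57) and mdt-6† (-1.27), followed by mdt-19 (-0.90) and mdt-15 (-0.88).

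Ribosomal protein genes are given by compartment. Of 74 genes of the cytosolic ribosome 2 rose and 6 fell with a median of -0.02, so most did not pass, and the balance turned to 18 and 1 under the bright-autosome scaling. Of 59 genes of the mitochondrial ribosome 2 rose and 31 fell with a median of -0.29. Among these mrps-21 (-1.46), mrpl-17 (-1.22), mrpl-40 (-1.18) and mrps-10 (-1.15) fell furthest, and mrps-11† (0.67) and mrps-14† (0.63) rose. Translation factors and tRNA synthetases gave 6 higher and 24 lower of 73, equal at 16 and 16 under that scaling. The initiation factor gene eif-3.J (-1.26) fell furthest, and ife-5 (0.96), a cap-binding protein gene, rose furthest. Of 49 nuclear pore and transport genes 3 rose and 21 fell (42.9%). This was near the 38.2% of all genes above the median level, where 44 of the 49 lie. The exportin gene xpo-2† (-1.47) and npp-18 (-1.08) fell furthest.

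Germline regulators diverged within families. Among 72 genes of germ granules, small RNAs and germline RNA binding, a list written after other values had been seen, 21 rose and 15 fell, 14 and 3 of them by 2-fold or more, and under the autosomal scaling 17 rose and 19 fell. The Vasa-like helicase gene glh-1, whose probe set can bind related transcripts, read 8.17, 8.30 and 8.36 on the control arrays and 11.65, 11.64 and 11.94 on the smo-1 RNAi arrays. Its level rose by 11.1-fold with no overlap between groups. The Argonaute gene csr-1 read 6.62, 6.67 and 6.80 on the control arrays and 9.20, 9.70 and 9.30 on the smo-1 RNAi arrays. This was a change of 2.70 ± 0.19 (limma adjusted p = 1.6e-06). The PUF gene fbf-2, a translational repressor in germline stem cells, read 5.63, 5.59 and 5.70 on the control arrays and 7.57, 8.42 and 8.30 on the smo-1 RNAi arrays. It went from background to a middle level, by 2.46 ± 0.21 (limma adjusted p = 6e-06), and fbf-1 (1.67) rose as well.

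Further risers were the Argonaute genes ppw-2† (1.71), wago-4 (1.40), prg-1† (1.20) of the piRNA pathway, and the RNA-binding genes cpb-3 (1.57) and fog-1 (1.22). fog-2 (1.79), a gene needed for hermaphrodite sperm, and the P granule gene pgl-3 (1.01) rose too. Other P granule and maternal genes fell: meg-3† (-1.16) and deps-1 (-0.81) of granule assembly, nos-2† (-0.95), a Nanos gene, and the oocyte PUF genes puf-11 (-0.80) and puf-5† (-0.75). Among other Argonaute genes ergo-1† (-1.40), nrde-3† (-0.77) and alg-5 (-0.68) fell.

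**Figure D5:**
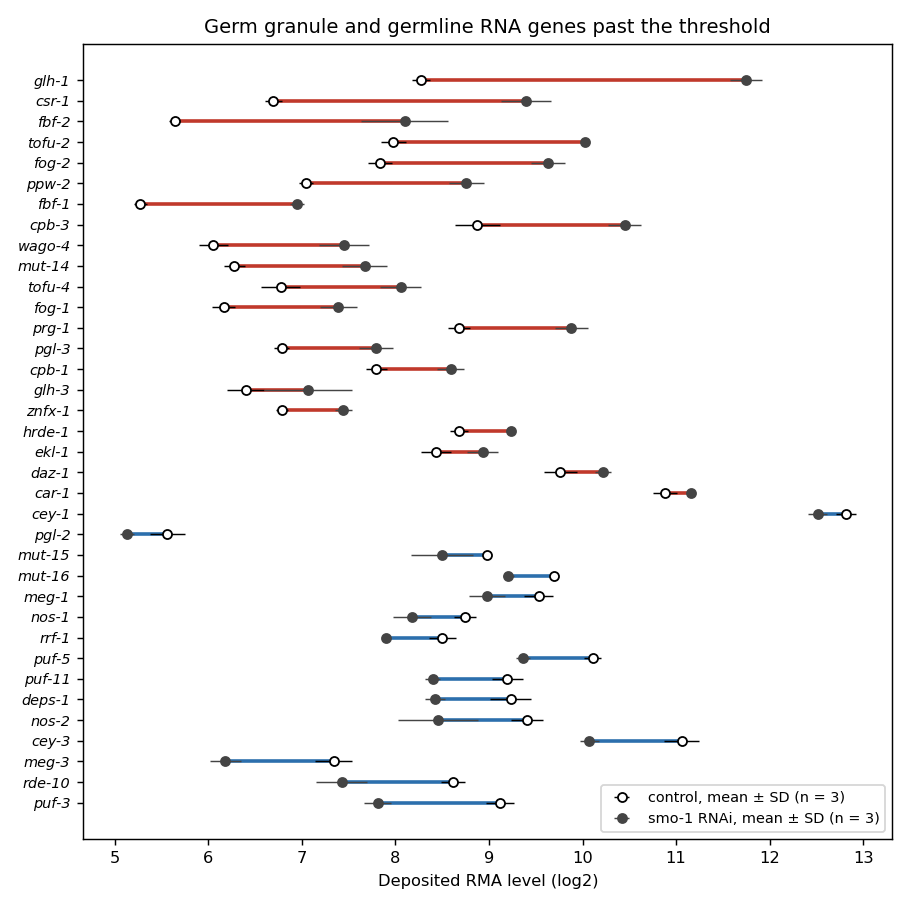
Mean log2 levels with SD (n = 3 per group) of the members of the germ granule and germline RNA list that passed an adjusted p of 0.05, in control (open) and smo-1 RNAi embryos (filled), ordered by change. Red lines join the 21 genes that rose, with glh-1, csr-1 and fbf-2 at the top, and blue lines the 15 that fell.

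Among 41 genes of meiotic chromosomes, also listed after other values were seen, 11 rose and 11 fell, which became 10 and 19 under the autosomal scaling and 11 and 5 under the bright-autosome scaling. The synaptonemal complex gene syp-1 (2.29), the axis gene htp-3 (1.58), zhp-2† (2.02) and dsb-2† (1.21), needed for meiotic breaks, rose. The gene of the checkpoint remodeller, pch-2 (-1.51), and him-17† (-0.94) fell. Major sperm protein genes gave 1 higher and 0 lower of 37, turning to 0 and 1 under the autosomal scaling. Of 16 nspa to nspe genes, families of short nematode-specific peptides, 7 rose and 0 fell, with 12 read by probe sets that can bind related transcripts.

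Among chromatin repressor genes more fell than rose. Of 60, 3 rose and 27 fell, and 30 did not pass. Above the median level, where 58 of the 60 lie, 38.2% of all genes fell. The histone deacetylase gene hda-1 read 11.05, 10.79 and 11.08 on the control arrays and 9.72, 9.92 and 9.29 on the smo-1 RNAi arrays. The smo-1 RNAi arrays were lower without overlap, by -1.33 ± 0.16 (limma adjusted p = 8.4e-05). With it fell lin-40† (-1.43) and let-418 (-1.11) of the nucleosome remodelling complexes, dpl-1† (-1.43) of the DREAM complex, lsd-1 (-1.14), a demethylase, and set-16† (-1.25), a methyltransferase.

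In the Wnt and Notch pathways 32 of 55 genes fell (58.2%) and 6 rose, with a median of -0.47. The TCF gene pop-1, the nuclear end of the pathway that makes sister cells differ, read 7.33, 7.16 and 7.43 on the control arrays and 5.69, 5.80 and 5.61 on the smo-1 RNAi arrays, a difference of -1.60 ± 0.16 (limma adjusted p = 1.6e-05) with no overlap. Its beta-catenin partner sys-1 (-1.58), the Wnt gene mom-2† (-1.48), the Frizzled gene lin-17 (-1.20) and apr-1† (-1.01) fell, and the X-linked beta-catenin gene bar-1† (0.71) rose. Notch ligand genes were on both sides, with dsl-3 (-1.52), dsl-1† (-1.43) and dsl-6† (-1.20) lower and dsl-5 (0.74) higher. The receptor gene lin-12† (-0.99) fell. Growth signalling genes showed another balance, 16 higher and 3 lower of 45. They include the TGF-beta ligand gene daf-7 (1.92), the Smad gene sma-4 (1.82), the EGF-like gene lin-3 (1.25) and the kinase gene akt-2 (1.04), while mek-2 (-1.03) of the Ras pathway fell.

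Adhesion genes fell in 22 of 53 cases (41.5%) and rose in 8, turning to 12 and 15 under the bright-autosome scaling. Above the median level, where 48 of the 53 lie, 38.2% of all genes fell. Basement membrane genes nid-1† (-1.32), lam-3 (-1.18) and epi-1 (-0.84) and the catenin genes jac-1† (-1.34) and hmp-2 (-0.78) were lower. The claudin-like genes clc-1† (3.61) and clc-3 (1.47), both X-linked, were higher. Gap junction and tetraspanin genes gave 11 higher and 8 lower of 42, turning under the autosomal scaling to 8 and 13. Of these 13 are X-linked, and among the 29 autosomal members 6 rose and 8 fell.

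Stress genes showed no common direction. Of 12 small heat shock genes 6 rose, led by hsp-17 (2.51) and hsp-43† (2.19), and hsp-12.1 (-1.49) and hsp-12.2 (-1.21) fell. The strongly heat-inducible hsp-16.2 (0.44) and hsp-16.41 (0.26) did not pass. Of 53 larger chaperone genes 5 rose and 22 fell (41.5%), including the endoplasmic reticulum genes dnj-27 (-1.88), hsp-4† (-0.87), hsp-3† (-0.78) and enpl-1 (-0.85). The share was near the 38.2% of all genes above the median level, where 47 of the 53 lie. Antioxidant genes gave 8 higher and 6 lower of 29, turning to 7 and 10 under the autosomal scaling. Among their 25 autosomal members 5 rose and 6 fell. Metallothionein mtl-1 (2.65), gpx-3 (2.65) and the secreted dismutase gene sod-4 (2.17) rose. Of 59 DNA damage and cell death genes 4 rose and 23 fell. The share that fell was near the 38.2% of all genes above the median level, where 48 of the 59 lie. In the death pathway the caspase-related gene csp-2† (1.27) rose, and ced-9 (-0.77), the Bcl-2 gene, ced-4 (-0.69) and the nuclease gene crn-1 (-1.64) fell.

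Metabolic genes were mixed. Of 40 glycolysis and TCA cycle genes 16 rose and 11 fell, turning to 10 and 17 under the autosomal scaling. Glycolytic pfk-1.1 (1.39), gpd-3† (1.33), aldo-1† (1.33) and ipgm-1 (1.01) rose. Respiratory chain genes gave 6 higher and 22 lower of 64, turning to 11 and 10 under the bright-autosome scaling. Of 45 glutathione transferase genes 10 rose and 4 fell, led by gst-5 (2.39) and gst-24 (1.90), the counts being equal, at 9 each, under the autosomal scaling. Of 64 UDP-glycosyltransferase genes 8 rose and 19 fell, equal at 14 each under the bright-autosome scaling, with ugt-22 (-2.12) lowest and ugt-31 (2.12) highest. Cytochrome P450 genes gave 9 higher and 9 lower of 73 (7 and 17 under the autosomal and 15 and 7 under the bright-autosome scaling), from cyp-32A1† (3.08) to cyp-35C1† (-2.38).

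Further families are given by their counts. Of 36 histone genes 2 rose and 19 fell, of 33 proteasome genes 2 and 12, and of 69 maternal fate, polarity and eggshell genes 14 and 29. Of these lists 30, 32 and 57 members lie above the median level, where 38.2% of all genes fell. The shares that fell among proteasome and maternal genes were near this background. Of 438 F-box, BATH and Skp genes, adaptors of ubiquitin ligases, 87 rose and 104 fell, turning to 133 and 71 under the bright-autosome scaling, from fbxa-197 (2.54) to skr-7 (-2.07). Solute and ABC transporter genes gave 34 higher and 26 lower of 132. Of these 35 are X-linked, and among the 97 autosomal members 14 rose and 23 fell. The whole list turned to 27 and 36 under the autosomal scaling. The glutamate transporter gene glt-1† (3.42) rose furthest. Of 43 lipid-binding and lipase genes 12 rose and 9 fell, turning to 8 and 10 under that scaling, from lips-6 (2.68) to lips-9† (-1.52). Short-chain dehydrogenase genes gave 7 and 8 of 30, and acyl-CoA dehydrogenase and synthetase genes 2 and 7 of 35, both turning under the bright-autosome scaling.

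Some changes lay in runs of neighbouring genes, defined as 3 or more measured genes in a row on a chromosome that each moved by 2-fold or more in 1 direction. There were 32 such runs with 112 genes, 25 higher and 7 lower, and 12 of the higher runs were on X. The longest, of 6 genes on chromosome II, held nspe genes between 1.61 and 5.54. Another on chromosome V held nlp-27 to nlp-31 (2.37 to 5.47), and 1 on chromosome V held irg-5, an infection response gene, with 4 neighbours (1.33 to 4.19). On chromosome II the 5 genes lido-8 to lido-12 fell together, by values from -2.27 to -1.16, and on chromosome IV the Skp1-related genes skr-8, skr-9 and skr-13 fell. Probe sets that can bind related transcripts read at least 1 gene in the runs, except in 11 runs of 34 genes. Among those, a run on chromosome V held ftr-1, fog-2 and fbxa-114 (1.79 to 2.33). Related neighbours may therefore share signal.

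The smo-1 RNAi arrays were also set directly against the sdc-2(y93)+RNAi arrays, with 18.4% of all genes higher and 17.2% lower on the former. This contrast shares the smo-1 RNAi arrays with the comparison above and sets side by side mothers grown on the same schedule. Control arrays do not enter its fold changes, but they enter the shared estimate of spread behind its standard errors and p-values. Hybridisation controls gave signal on the sdc-2(y93)+RNAi arrays and not on the others, so array handling and treatment cannot be told apart. The labels conflict on which RNAi plasmid the sdc-2(y93)+RNAi worms were fed. On their arrays smo-1 read 10.88 ± 0.12 (SD, n = 3), which was below control by -1.05 (limma adjusted p = 0.00094) and above the smo-1 RNAi arrays. The sdc-2 gene differed there from control by -0.35 (limma adjusted p = 0.14), which did not pass. What the direct values compare is limited by this. Of 101 neuropeptide genes 73 were higher and 2 lower in the smo-1 RNAi group, and of 15 epidermal peptide genes 14 and 0. For transthyretin-like genes the counts were 28 and 0 of 40. Replication genes were higher in 1 and lower in 33 of 46 cases, Wnt and Notch genes in 6 and 35 of 55, and homeobox genes in 4 and 36 of 93. Chromatin repressor genes were higher in 3 and lower in 32 of 60 cases. Splicing factor genes were higher in 0 and lower in 22 of 64 cases. Genes of RNA polymerase II, TFIID and Mediator gave 5 and 16 of 50, and histone genes 7 and 6 of 36. Against control, members of these lists also fell in the sdc-2(y93)+RNAi embryos. There 4 splicing factor genes were higher and 40 lower, with 5 and 25 for polymerase and Mediator genes and 0 and 18 for histone genes. More ribosomal protein genes were higher than lower, with 35 higher and 1 lower of 74 cytosolic and 25 and 0 of 59 mitochondrial ones. Against control, the sdc-2(y93)+RNAi embryos had 0 cytosolic ones higher and 37 lower, and 0 and 46 mitochondrial ones. The smo-1 RNAi embryos had 2 and 6 cytosolic and 2 and 31 mitochondrial ones against control.

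Values of single genes are given for some members described above. The difference of smo-1 RNAi over sdc-2(y93)+RNAi embryos was 2.47 ± 0.18 (limma adjusted p = 2.7e-06) for nlp-29 and 3.04 ± 0.16 (limma adjusted p = 4e-07) for cpr-4. It was 3.58 ± 0.18 (limma adjusted p = 2.7e-07) for glh-1 and 2.76 ± 0.19 (limma adjusted p = 2.1e-06) for csr-1. The value for gmn-1 was -0.92 ± 0.13 (limma adjusted p = 0.00025) and that for hda-1 -0.71 ± 0.16 (limma adjusted p = 0.0057). Among genes that fell against control, noah-2 differed by -0.86 ± 0.09 (limma adjusted p = 3.4e-05).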

How the data were processed

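Total RNA of mixed-stage embryos was labelled with biotin and hybridised to Affymetrix C. elegans arrays. The deposited values are log2 levels that the authors made by RMA, for which the submitters' processing notes name Affymetrix Expression Console. Its version, the RMA options and whether all 9 arrays were run jointly are not stated in those notes or the labels. Because RMA forces arrays to a common distribution, a shift of the whole transcriptome is invisible and changes of dim genes are understated.

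Of 22625 probe sets 20766 were listed with 1 gene, and 20701 of these matched RefSeq's gene table for WBcel235, the source of symbols and chromosomes. The probe set brightest on average over the 9 arrays stood for each of 17118 genes, and 4237 of these can bind related transcripts. Groups came from sample titles. The test was limma 3.58.1 in R 4.3.3 (lmFit and eBayes on all 9 arrays, 6 residual degrees of freedom, no covariate, two-sided), with p-values adjusted by Benjamini-Hochberg across all genes and called at 0.05. The steps were tested on simulated data. The 70 gene lists, their members and the comparison were chosen with earlier results of these data known. Genes named were smo-1, the 25 highest and 25 lowest, up to 5 per list by smallest adjusted p among those whose arrays did not overlap, its furthest opposite member (or up to 2 members where none passed), and members of neighbour runs, not all of which are printed. Others were chosen for their role after their values were seen. Probe sets without a listed gene or with several were left out of the tests. Alternatives were other summaries of probe sets, fits, scalings and thresholds, and leaving out each array.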

Additional observations from a re-analysis of the deposited data

Results flagged for a closer look

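Probe sets outside the gene comparison also changed. Among the 895 probe sets not listed with a gene in the annotation used here, 26 were higher and 11 lower by 2-fold or more in smo-1 RNAi embryos (limma adjusted p under 0.05 against control), and the largest rise was 3.87 on the log2 scale. Among the 887 probe sets listed with several genes, 75 were higher and 28 lower, with a largest rise of 4.94. Neither set was assigned to genes.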

How the results depend on the processing

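The counts of genes higher and lower than control were 3039 and 3794. Under the autosomal scaling they were 2392 and 5158 and under the bright-autosome scaling 4967 and 2492, so the scaling decides which direction has more genes. Testing only genes above the median level gave 1994 higher. A minimum fold of 1.5 (treat) left 1126 and 741, and 1449 genes in place of 6101 in the direct comparison with sdc-2(y93)+RNAi, as a stricter threshold must. Leaving out each array gave 2552 to 3396 higher, 3126 to 4176 lower and 5243 to 6799 genes in that direct comparison. Equal replicate numbers share only a number: their deviations correlated at 0.07, -0.13 and -0.15, and the replicate block gave 3034 and 3795. Over the alternatives 0 named genes reversed, and of 70 lists 44 kept which direction had more members under the 3 scalings. Of 289 called genes printed by name 73 were lost with the minimum fold and 3 with another alternative, namely cnc-3, ifa-3 and ulp-5. Dim genes limit the falls that can be seen, since 7121 of 17118 had a control level below 6.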

Other observations

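Of 2981 genes with several probe sets, 363 changed by 2-fold or more at the brightest one, and for 330 of these (90.9%) all probe sets had the same sign of change. Agreement was not counted for the genes that changed less. Another probe set of some genes named above did not pass, among them those of cks-1 (-0.12), unc-62 (-0.32), unc-22 (0.23) and dyf-2 (-0.16). The same held for alg-5 (-0.37) and cutl-20 (0.26 and 0.29), and for dim ones of hda-1 (0.09), daf-12 (-0.15) and csp-2 (-0.06).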
